A study of Mus musculus with 6 samples.

Results

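The BAFF and APRIL system was examined in kidneys of the MRL and LPR strains through its 2 ligands, BAFF (gene Tnfsf13b) and APRIL (Tnfsf13), and its 3 receptors, TACI (Tnfrsf13b), BAFF-R (Tnfrsf13c) and BCMA (Tnfrsf17). The members are the probes that the array annotation names for these 5 genes, out of 36870 gene names on the array. Of the 5 genes, 4 had a probe of their own, 9 probes in all, and every one of the 9 passed the filter on dim probes. No probe is named for Tnfsf13. The transcripts of Tnfsf13 are listed only for 1 probe named for Tnfsfm13, the read-through gene that joins Tnfsf12 with Tnfsf13, so the signals of these genes cannot be told apart.

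The 2 groups were 3 female MRL/MpJ mice (MRL) and 3 female mice of strain MRL/MpJ-Fas lpr/lpr (LPR), all 6 months old and kept free of specific pathogens. LPR mice share the MRL/MpJ background and carry the lpr mutation of the death receptor gene Fas in every cell, and they serve as a model of lupus nephritis. Whole kidney RNA of each mouse, labelled with Cy3, was hybridized to 1 single-colour array, and all 6 arrays lay on 1 slide. Nothing in the kidney was sorted, so a higher signal from more cells of a type and one from more RNA per cell cannot be told apart.

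BAFF and APRIL are TNF family cytokines made chiefly by myeloid and stromal cells. BAFF binds BAFF-R, TACI and BCMA, whereas APRIL binds TACI and BCMA and also the sugar chains of proteoglycans. BAFF-R keeps mature B cells alive through the noncanonical NF-kappaB pathway, TACI is found on activated and marginal zone B cells, and BCMA is found on plasma cells and sustains their survival. An excess of BAFF is a known driver of lupus-like disease in mice, and clusters of lymphocytes form around the vessels of the LPR kidney.

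The probes decide what was measured, and those of 1 gene gave different changes. Apart from the further Tnfsf13b probes, which are left out, the sequences of all member probes and of the probe shared with Tnfsf13 are shown. Each was written 5′ to 3′ in lower case as the array files give it, whole for 3 probes to the receptor messages near the start of the transcript and as the first 30 of 60 bases for the others.
Tnfsf13b A_51_P257934, first 30 bases: cgttgaatctgatccaaaccaggaaatata
Tnfrsf13b A_55_P1981964, first 30 bases: cctggagaatatagcctggctccatttgca
Tnfrsf13b A_51_P106269, whole: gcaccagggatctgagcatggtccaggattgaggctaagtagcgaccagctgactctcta
Tnfrsf13b A_55_P1981972, whole: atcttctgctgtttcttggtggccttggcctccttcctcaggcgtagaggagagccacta
Tnfrsf13c A_51_P457187, first 30 bases: ataaaatggactaacacaggcactatgagt
Tnfrsf13c A_55_P2117623, whole: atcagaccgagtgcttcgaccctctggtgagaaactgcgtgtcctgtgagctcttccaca
Tnfrsf17 A_51_P270807, first 30 bases: tagataatgagcttcctaactggtgtgaag
Tnfsfm13 and Tnfsf13 A_52_P118591, first 30 bases: atttcccattccaaaaactggctagacaaa
On the mouse genome build mm9, which the array annotation uses, the probes for Tnfsf13b lie on chromosome 8, at chr8:10035561-10035620 for A_51_P257934, chr8:10022841-10022900 for A_55_P2738252 and chr8:10026129-10026188 for A_55_P2731791. The first matches the RefSeq messenger RNA of Tnfsf13b, and the other 2 were designed to single Ensembl transcripts of the gene. The probes for Tnfrsf13b lie on chromosome 11, at chr11:60962770-60962829 for A_55_P1981964, chr11:60960405-60960464 for A_55_P1981972 and chr11:60954968-60960376 for A_51_P106269, which spans an intron. The probes for Tnfrsf13c lie on the minus strand of chromosome 15, at chr15:82052225-82052284 for A_51_P457187 and chr15:82054616-82054675 for A_55_P2117623, and start at bases 1795 and 91 of the transcript. The Tnfrsf17 probe lies at chr16:11320045-11320104. All 7 member probes with a RefSeq transcript matched the current RefSeq list under that transcript.

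Values are log2 intensities relative to the 75th percentile of the array, so they can be set side by side between mice for 1 probe, but not between probes. A change is LPR minus MRL on the log2 scale, with the standard error and the Benjamini-Hochberg adjusted p of limma over all 39924 probes tested, and the threshold was 0.05. Between 69.6% and 73.5% of the spots of an array were well above background by the scanner software, and no spot was saturated. The pairwise correlations of arrays were 0.990 to 0.993 within a group and 0.961 to 0.971 between groups. The brighter Fas probe, A_55_P2091676, read -0.37, -0.28 and -0.06 in MRL 1, 2 and 3 and -0.49, -1.25 and -0.37 in LPR 1, 2 and 3 (change -0.47, standard error 0.24, adjusted p = 0.234). The dimmer one, A_52_P73385, went the other way and passed the test. It read -7.95, -6.31 and -7.59 in the MRL mice, none well above background, and -4.97, -5.80 and -5.41 in the LPR mice, all well above it. The difference was at least 1.47-fold. The adjusted p of 0.0338 belongs to the fitted change of 1.89, which uses the MRL values as read. Whether either probe lies in the part of Fas altered in lpr mice is not given in the sources used here, so Fas checks the labels no further. Of the 10 markers of kidney epithelium and podocytes, all 10 were well above background in every mouse.

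The gene for BAFF was upregulated in LPR mice. Its brightest probe, A_51_P257934, read -3.59, -3.58 and -3.01 in MRL 1, 2 and 3. In LPR 1, 2 and 3 it read -1.30, -1.41 and -1.38. The 2 groups did not overlap, the 3 LPR mice lay within a narrow band (SD 0.06, against 0.34 in MRL), and MRL 3 was the highest of the controls. The change was 2.03 (standard error 0.17, adjusted p = 0.000505), a 4.09-fold rise.

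Of the other 2 Tnfsf13b probes, each designed to 1 Ensembl transcript, 1 passed the test. A_55_P2738252 read -4.84, -5.27 and -5.33 in MRL 1, 2 and 3 and -3.94, -4.27 and -3.33 in LPR 1, 2 and 3. Its change of 1.30 (standard error 0.26, adjusted p = 0.0209) passed, and the groups did not overlap. This call was lost in several other settings, among them normexp background correction (0.39, adjusted p = 0.0544) and the omission of MRL 2, MRL 3 or LPR 1 (adjusted p = 0.0676, 0.0685 and 0.0558). With the slide row in the fit, which sets LPR 1 alone against the MRL mice, the change was 1.21. A_55_P2731791 read -4.90, -4.57 and -4.59 in MRL 1, 2 and 3 and -4.20, -4.57 and -4.38 in LPR 1, 2 and 3. Here LPR 2 was only 0.003 above the highest MRL mouse, and the change of 0.30 (standard error 0.15, adjusted p = 0.216) did not pass.

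APRIL could be read only through the probe shared with Tnfsfm13. A_52_P118591, on chromosome 11 at chr11:69496657-69496716, read 0.58, 0.71 and 0.94 in MRL 1, 2 and 3. In LPR 1, 2 and 3 it read 1.11, 1.16 and 1.13. Every LPR mouse was above every MRL mouse, but the change of 0.39 (standard error 0.12, 95% interval 0.11 to 0.68) did not pass the test (adjusted p = 0.0802). It passed with normexp background correction (adjusted p = 0.0297) and with an intensity trend in limma (adjusted p = 0.0392), at changes of 0.37 and 0.39. The interval leaves out a change of the size of the BAFF probe, although the difference between these 2 probes was not tested.

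The genes tied to this locus did not pass the test. Tnfsf12, which encodes TWEAK and lies beside Tnfsf13, had a change of 0.31 (standard error 0.11, adjusted p = 0.111). Tnfrsf12a, the receptor of TWEAK, had a change of 0.08 (standard error 0.18, adjusted p = 0.796). Of the 3 genes of the neighbour and read-through list, Tnfsfm13 included, 0 passed the adjusted threshold in limma, against 2 at an unadjusted p under 0.05 in limma and 2 in the methods' t-test.

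All 3 receptors were upregulated by their brightest probe, and for BCMA and BAFF-R that probe was not well above background in any MRL kidney. For BCMA, A_51_P270807 read -7.99, -8.11 and -7.38 in MRL 1, 2 and 3, all not well above background. In LPR 1, 2 and 3 it read -3.62, -2.59 and -2.81, all well above background. The LPR mean exceeded the MRL mean at least 7.72-fold, after each MRL signal was raised to the detection limit of its array. That limit is the lowest signal there that the scanner software called well above background. The fitted change of 4.82 (adjusted p = 0.000129) rests on MRL values below that limit.

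For BAFF-R the probe near the end of the transcript, A_51_P457187, gave the same picture. It read -6.87, -5.74 and -6.31 in MRL 1, 2 and 3, not well above background, and -1.65, -1.93 and -1.57 in LPR 1, 2 and 3. The LPR mean exceeded it at least 17.7-fold (fitted change 4.59, adjusted p = 0.000107). The probe near the start of the transcript, A_55_P2117623, gave no such rise. It read -5.80, -6.34 and -5.80 in MRL 1, 2 and 3 and -6.25, -5.86 and -5.75 in LPR 1, 2 and 3. The groups overlapped, and the change was 0.03 with a 95% interval of -0.45 to 0.50 (adjusted p = 0.940). Its intensities, 8.79 to 14.05, lay close to the lowest intensity well above background on an array, 10.4 to 12.5, and it was well above background in 2 MRL mice and 3 LPR mice. In MRL mice alone the mean of A_55_P2117623, -5.98, was above that of A_51_P457187, -6.30. A_51_P457187 was thus the brighter BAFF-R probe over all 6 arrays only through the LPR mice.

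TACI was measured by 3 probes, which gave 3 sizes of change. The brightest, A_55_P1981964, read -3.27, -3.08 and -2.56 in MRL 1, 2 and 3 and -0.28, 0.37 and 0.22 in LPR 1, 2 and 3. Its change was 3.07 (standard error 0.24, adjusted p = 0.000311), an 8.42-fold rise with a wide gap between the groups. The probe that spans an intron, A_51_P106269, read -6.25, -6.39 and -6.06 in MRL 1, 2 and 3 and -4.74, -3.65 and -4.36 in LPR 1, 2 and 3. No MRL value was well above background, and the LPR mean exceeded it at least 3.26-fold (fitted change 1.98, adjusted p = 0.00441). In limma that call was lost with normexp background correction (0.43, adjusted p = 0.0601). The methods' t-test on the values of the main fit also left it short of the threshold after adjustment, at an adjusted p of 0.0507. With the slide row in the fit, which sets LPR 1 alone against the MRL mice, the change was 1.49. The last probe, A_55_P1981972, read -2.95, -3.20 and -3.08 in MRL 1, 2 and 3 and -2.89, -2.24 and -2.38 in LPR 1, 2 and 3. The groups were 0.06 apart, and the change of 0.57 (standard error 0.18, adjusted p = 0.0901) did not pass, although it passed without LPR 1 (0.77, adjusted p = 0.0227).

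**Figure D1:**
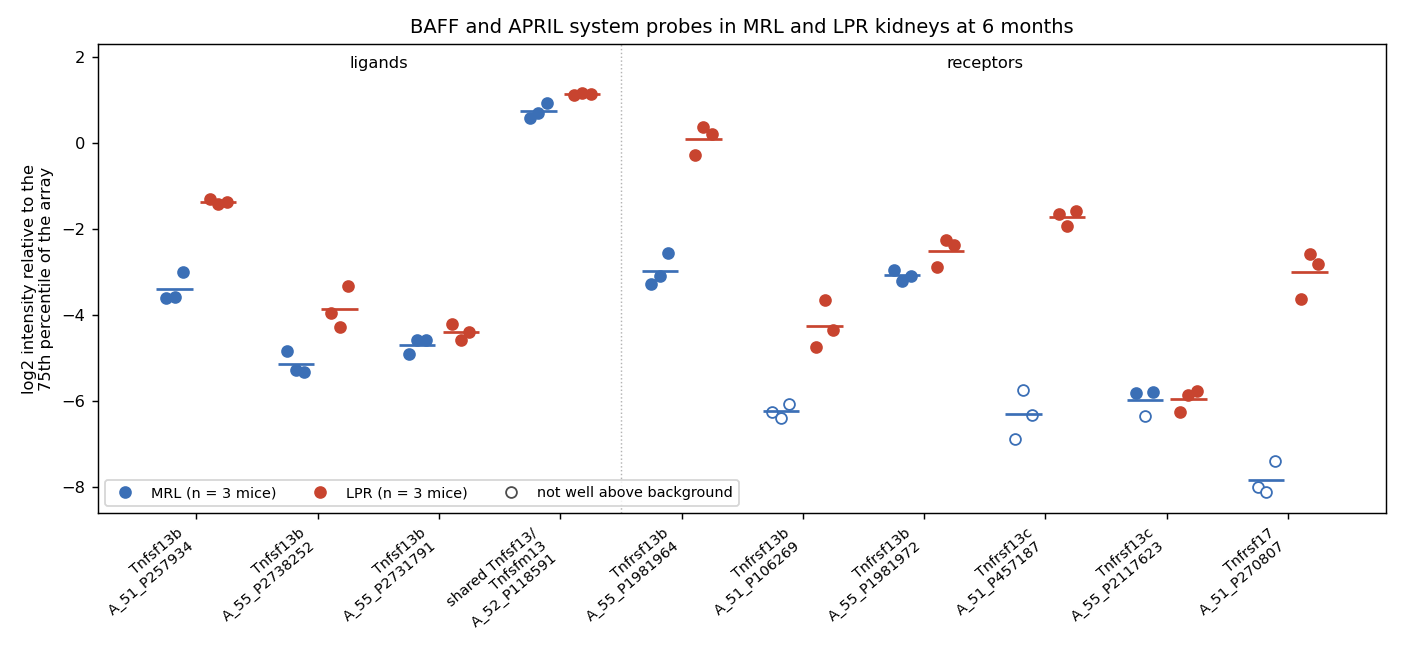
Each point is 1 mouse, the horizontal bars are group means, and the y axis is the log2 intensity relative to the 75th percentile of the array. Open points are not well above background. MRL and LPR kidneys separate widely for 1 probe each of BAFF, TACI, BAFF-R and BCMA and overlap for the BAFF-R probe A_55_P2117623. Levels are not comparable between probes.

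By the brightest probe, 4 of the 4 measured genes were called higher in LPR mice, where 7.12% of all 25805 genes tested were called higher. The brightest probe was that with the highest mean over all 6 arrays, LPR mice included, a choice that favours probes higher in LPR mice. By single probes, 6 of the 9 were called higher and 0 lower, against 6.53% of all probes called higher. In 8 of the 9 every LPR mouse was above every MRL mouse, a pattern held by 11.0% of all probes tested. For 3 of the 9, A_51_P106269, A_51_P457187 and A_51_P270807, no MRL mouse was well above background. These passed the filter on dim probes only through the LPR mice. All 3 are among the calls and the separated probes, so these counts are not independent of the filter. The calls of the 4 brightest probes held in every setting that tested them, with adjusted p up to 0.0187, though the filter for signals on all 6 arrays leaves out Tnfrsf13c and Tnfrsf17. The fitted sizes did not hold. With normexp background correction, which compresses low signals, the changes fell to 1.33 for Tnfsf13b, 2.37 for Tnfrsf13b, 1.96 for Tnfrsf13c and 1.22 for Tnfrsf17.

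Position on the slide was not balanced between the groups, since row 1 held the 3 MRL mice and LPR 1 and row 2 held the other LPR mice. Within row 1 the changes of the brightest probes were 2.10 for Tnfsf13b, 2.69 for Tnfrsf13b, 4.65 for Tnfrsf13c and 4.21 for Tnfrsf17. Within slide column 1 they were 2.19, 3.64, 4.94 and 5.39, in the same order, and within slide column 2 they were 2.20, 3.30, 4.16 and 5.30. Row 1 set LPR 1 against the 3 MRL mice, column 1 set LPR 2 against MRL 1, and column 2 set LPR 3 against MRL 2. For these probes every LPR mouse was above every MRL mouse, so the direction within each set was fixed in advance. It therefore cannot check the effect of slide position. A fit with the slide row as a block draws its change from LPR 1 alone against the MRL mice. One with the slide column draws it from LPR 2 and 3 against MRL 1 and 2. Because fewer mice are compared in these fits, a call lost there does not show an effect of slide position.

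In the 3 genes with several probes, the probe farthest toward the 3′ end of the gene had the largest change, in 3 of 3 genes. Among all 579 genes that were higher in LPR mice and had 2 or more placed probes, this held for 315, or 54.4%. Which transcripts of a gene were present was not tested.

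**Figure D2:**
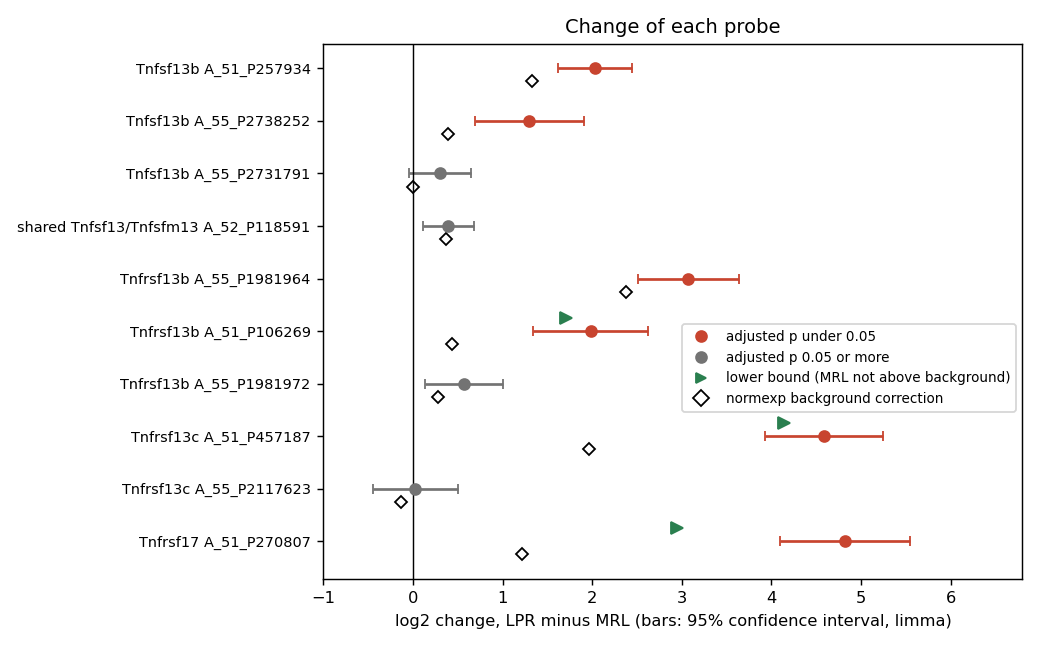
The x axis is the log2 change, LPR minus MRL, of each probe, with the 95% confidence interval of limma. Triangles give the lower bound where no MRL mouse was well above background, and diamonds give the change after normexp background correction. For Tnfrsf17 the fitted change of 4.82 stands beside a bound of 2.95 and a normexp value of 1.22.

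Ligand and receptors were then compared within each array, as the signal of a receptor minus that of BAFF, both by the brightest probe, which leaves only the difference of changes to compare between the groups. The change of TACI exceeded that of BAFF by 1.04, the change of BAFF-R by 2.55 and the change of BCMA by 2.79. With the MRL signals at their limit the last 2 were at least 2.11 and at least 0.91. In each of the 3 pairs every LPR mouse was above every MRL mouse. The exact two-sided permutation test gave p = 0.1 for each pair, and 0.1 after adjustment over the 3 pairs, which is the smallest value that 3 against 3 mice can give, so no pair could pass. The pairs with APRIL could not be formed.

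This order depended on the probe and on the background correction. Of the 6 receptor probes, 3 had a larger change than the brightest BAFF probe, and the other 3, both further TACI probes and the BAFF-R probe A_55_P2117623, differed from it by -0.05, -1.46 and -2.01. When the probes of a gene were averaged, the differences were 0.66 for TACI, 1.09 for BAFF-R and 3.61 for BCMA. With normexp background correction the change of BCMA was below that of BAFF, by -0.11, while those of TACI and BAFF-R stayed above it, by 1.04 and 0.63.

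The promoters were searched because BAFF, TACI, BAFF-R and BCMA all rose in the same kidneys. In the 250 bases before each RefSeq start (build GRCm38.p6), 3 motifs were sought on both strands, an interferon response element (GAAA, any 2 bases, GAAA), an interferon-gamma activated site (TTCNNNGAA) and the kappaB consensus. They are held by 2.98%, 7.02% and 3.90% of 32851 such windows. The interferon response element was found in the window of Tnfrsf17 and in that before the second RefSeq start of Tnfsf13b, and no other match was found for the 5 genes. The Tnfrsf17 window is shown whole because its gene had the largest fitted change, that of Tnfrsf13c because it held no match beside a change almost as large, and for Tnfsf13b the 30 bases around the match are given. Capitals mark the motif.
Tnfrsf17, chr16:11313559-11313808, plus strand: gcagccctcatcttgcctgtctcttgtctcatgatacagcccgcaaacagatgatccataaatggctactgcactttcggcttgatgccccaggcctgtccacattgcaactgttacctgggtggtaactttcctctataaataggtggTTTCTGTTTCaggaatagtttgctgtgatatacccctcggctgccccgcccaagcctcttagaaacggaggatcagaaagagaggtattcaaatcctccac
Tnfrsf13c, chr15:82224381-82224630, minus strand: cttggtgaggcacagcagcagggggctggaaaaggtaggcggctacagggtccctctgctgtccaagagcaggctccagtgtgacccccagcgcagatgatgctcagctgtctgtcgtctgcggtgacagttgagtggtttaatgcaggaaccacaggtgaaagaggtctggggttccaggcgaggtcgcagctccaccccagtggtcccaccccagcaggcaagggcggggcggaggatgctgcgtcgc
Tnfsf13b, chr8:10006603-10006632, plus strand: atcttacaaaaactGAAAGTGAAAtgcgga
The Tnfrsf17 match begins 101 bases before the start and lies on the opposite strand. The Tnfsf13b match begins 16 bases before the second start of that gene. It lies after the first start, whose window ends at base 10006466 of chromosome 8. A match describes letters only, and binding of a factor was not measured.

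Downstream of the receptors, the noncanonical NF-kappaB list held 10 tested genes, of which 3 were higher and 1 lower in LPR mice, where 7.12% and 5.47% of all genes tested were called in these directions. Its median change was 0.17, beside -0.12 over all genes. Relb, the partner of p52, read -0.78, -0.59 and -0.51 in MRL mice and 0.23, 0.17 and 0.04 in LPR mice (change 0.77, standard error 0.12, adjusted p = 0.00737). Nfkb2, the source of p52, read 0.73, 0.81 and 0.81 in MRL mice and 1.44, 1.65 and 1.43 in LPR mice (change 0.72, standard error 0.11, adjusted p = 0.00683). Both genes are themselves NF-kappaB targets, and neither overlapped between the groups. Birc3, a ubiquitin ligase that restrains the pathway, rose by 0.67 (adjusted p = 0.0331), and Otud7b, a deubiquitinase named here after its value was seen, fell by 0.42 (adjusted p = 0.0414).

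The kinase and the adaptor at the head of that pathway did not pass. Map3k14, which encodes NIK, had a change of 0.31 (adjusted p = 0.215), and Traf3, which keeps NIK low until BAFF-R is engaged, had a change of 0.22 (adjusted p = 0.284). Once the column on the slide was entered as a block, 0 of the 10 genes passed. That fit compares the groups only within columns 1 and 2, through LPR 2 and 3 against MRL 1 and 2. A block for the row sets LPR 1 alone against the MRL mice. Neither fit can show whether slide position accounts for the calls. Without MRL 1, MRL 2, MRL 3, LPR 1 or LPR 3 in turn, 2 of the 10 passed each time, and without LPR 2 the count was 3.

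Among 9 tested genes of canonical NF-kappaB and other adaptors, 4 were higher and 0 lower, with a median change of 0.26. Traf1, an adaptor induced by NF-kappaB, read -2.18, -1.88 and -2.18 in MRL mice and 0.42, 0.48 and 0.43 in LPR mice, a 5.73-fold rise (adjusted p = 3.97e-05). Tnfaip3, which encodes the inhibitor A20, rose 2.31-fold (adjusted p = 0.00858) and Rel 1.76-fold (adjusted p = 0.0244). The remaining call was Nfkb1, 1.53-fold (adjusted p = 0.00743), named after its value was seen. Of the 9 genes, 2 passed in the methods' t-test after adjustment, and 2 with a block for the slide column.

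Of 10 tested genes for B cell survival and the response to BAFF, 3 were higher and 0 lower, with a median change of 0.17. Bcl2a1d, an anti-apoptotic BCL2 relative, read -1.80, -1.51 and -0.50 in MRL mice and 2.79, 2.69 and 2.66 in LPR mice (change 3.99, standard error 0.31, adjusted p = 0.000342). It has near-identical copies, so which copy gave the signal is uncertain. Pim1, a survival kinase, rose 2.55-fold (adjusted p = 0.0105), and Icosl, a costimulatory ligand, rose 1.35-fold (adjusted p = 0.0484). Bcl2, a survival factor tied to BAFF, and Mcl1, one tied to BCMA, had changes of -0.07 (adjusted p = 0.811) and 0.27 (adjusted p = 0.170). A block for the slide row left 1 call in this list, and 2 genes were called whichever mouse was left out. Icosl was not called in any fit without 1 mouse and, over all alternatives, in 15 of 21.

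The proteases that cleave BAFF and APRIL from their precursors or shed their receptors, Furin and the ADAM and gamma-secretase genes, held 8 tested genes, of which 0 passed in limma. At an unadjusted p under 0.05 the count was also 0, in limma and in the methods' t-test, and the changes ran from -0.35 to 0.17. Of 4 syndecans, proteoglycans whose chains can bind APRIL, 2 were higher. Sdc1, also a plasma cell marker, rose 1.99-fold (adjusted p = 0.00617), and Sdc3 rose 1.94-fold (adjusted p = 0.00321). Both separated the groups fully, and with the slide row in the fit 1 of the 4 passed.

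The other members of the TNF family put these changes in scale. Of 16 other ligands, 12 were tested, 6 were higher and 0 lower, with a median change of 0.78. Ltb (lymphotoxin beta, which builds lymphoid tissue) rose 12.1-fold (adjusted p = 5.49e-05), and Fasl, the ligand of Fas, which was well above background in 1 of the 3 MRL mice, rose 9.66-fold (adjusted p = 0.000844). Cd70, the ligand of Cd27, was well above background in no MRL mouse, and its LPR mean exceeded the MRL detection limit 1.40-fold. The adjusted p of 0.0102 belongs to its fitted change of 2.22, which rests on MRL values below that limit. With Cd70 at its lower bound, 2 of the 12, Ltb and Fasl, had larger changes than the brightest BAFF probe.

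Of 25 other receptors, 23 were tested, 5 were higher and 0 lower, with a median change of 0.33. Tnfrsf18 (GITR) rose 10.2-fold (adjusted p = 6.28e-05), and Cd27 rose 5.62-fold (adjusted p = 0.000563). Tnfrsf9 (4-1BB) rose at least 5.88-fold, with a fitted change of 3.28 (adjusted p of that change 2.52e-05). All 3 are known from T cells, and Cd27 also from plasma cells. Genes that had no MRL signal above background were then taken at their lower bound. By the brightest probe of each gene, TACI and BCMA were each exceeded by 1 of the 23, Tnfrsf18, and BAFF-R by 0, as a description with no test of the order. The place of BAFF-R rests on A_51_P457187, since its other probe, A_55_P2117623, changed by 0.03, below the list median. The further TACI probes had fitted changes of 1.98 and 0.57. With the filter for signals on all 6 arrays 3 genes of each of these lists were called, with the slide row in the fit 3 of the ligands, and with normexp background correction 8 of the receptors.

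**Figure D3:**
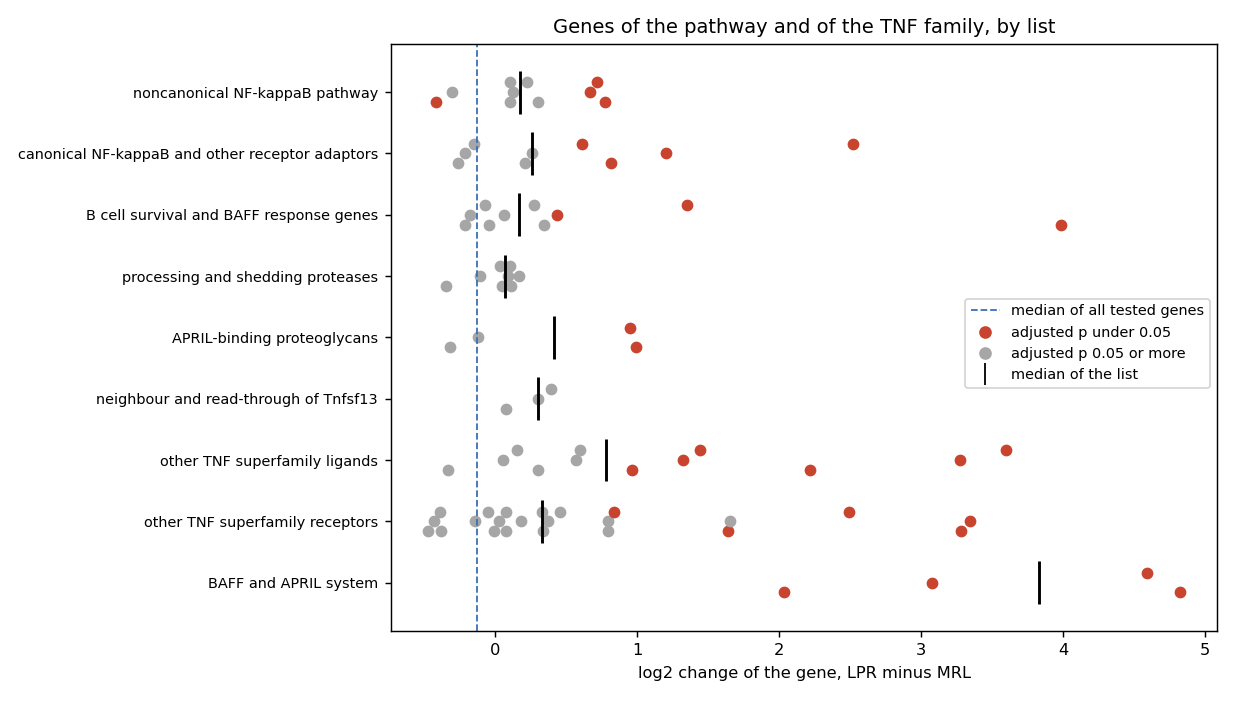
Each point is 1 tested gene by its brightest probe, the x axis is the log2 change, LPR minus MRL, black bars are list medians, and the dashed line is the median of all tested genes, -0.12. The BAFF and APRIL system row shows 4 genes at their fitted changes, 2.03 to 4.82. Tnfsf12 and Tnfrsf12a stand in 2 lists each.

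Most but not all markers of B cells and plasma cells were higher in LPR mice. Of 11 tested B cell markers, 7 were higher and 1 lower, with a median change of 1.88. The lower one by its brightest probe was Ms4a1, which encodes CD20, with a change of -0.70 (adjusted p = 0.0497). The 2 Ms4a1 probes disagreed, since 1 was called lower and 1 higher. Pax5 (-0.36), Cd22 (-0.03) and Ebf1 (0.37) did not pass by their brightest probe, but 1 of the 3 tested Cd22 probes was called higher. Ms4a1, Pax5, Cd22 and Ebf1 are named after their values were seen. The summed signal of the 11 markers, in units of the 75th percentile of the array, was 1.98 to 2.13 in MRL mice and 5.66 to 7.13 in LPR mice. The brightest, Cd79b of the B cell receptor, rose 7.12-fold (adjusted p = 0.000226). Of 8 plasma cell markers, 6 were higher and 0 lower, with a median change of 2.57, and the sum was 38.5 to 54.3 in MRL mice and 89.0 to 165 in LPR mice. The brightest, Xbp1, also made by kidney cells, had a change of 0.42 (adjusted p = 0.284). Among these lists Blk, Fcrla and Bank1, also named after their values were seen, were not well above background in any MRL mouse. The part of cell numbers in the changes of the receptors was not tested.

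The LPR mice did not line up alike for all members. LPR 1 was the lowest of the 3 LPR mice for TACI, by all 3 probes, and for BCMA. It also had the lowest sums of B cell markers, 5.66 against 6.76 and 7.13, and of plasma cell markers, 89.0 against 147 and 165. For BAFF, by its brightest probe, LPR 1 was the highest, and for BAFF-R, by A_51_P457187, it lay between the others. The array of LPR 1 also differed, as the only LPR array on slide row 1 and with a 75th percentile of 942, against 739 and 759 for LPR 2 and 3. With 3 mice these orders are a description only, and mouse and array cannot be told apart.

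Myeloid cells, a source of BAFF, were read in the same way. Of 9 macrophage and monocyte markers, 8 were higher and 0 lower, with a median change of 0.91, and the sum was 99.4 to 115 in MRL mice and 213 to 233 in LPR mice. The brightest, Ly6c2, which shares much of its sequence with Ly6c1, had a change of 0.49 (adjusted p = 0.0372). Of 7 tested dendritic cell markers 5 were higher, but the sum, 93.0 to 112 in MRL mice and 92.4 to 101 in LPR mice, overlapped, and most of it was the signal of Siglech (change -0.10, adjusted p = 0.586). Of 8 neutrophil markers 3 were higher and 5 did not pass. The calls, named after their values were seen, were S100a8 (change 2.48), S100a9 (2.28) and Mpo (0.65), with adjusted p = 0.00719, 0.0105 and 0.0458. The sums were 41.5 to 55.0 in MRL mice and 47.7 to 51.8 in LPR mice. Most of these sums was the signal of the brightest, Csf3r (change -0.07, adjusted p = 0.779).

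Of 8 T cell markers 7 were higher, with sums of 2.91 to 3.39 in MRL mice and 14.6 to 17.03 in LPR mice, and the brightest, Cd4, rose 1.45-fold (adjusted p = 0.0356). Of 6 tested genes of follicular dendritic cells and lymphoid stroma, which also make BAFF, 2 were higher and 4 did not pass. The calls, named after their values were seen, were Cxcl13 (change 5.93, adjusted p = 0.000254) and Ccl19 (2.10, adjusted p = 0.000547). The sums were 29.2 to 32.4 in MRL mice and 35.9 to 42.3 in LPR mice. Most of these sums was the signal of the brightest, Mfge8 (change -0.02, adjusted p = 0.921). Kidney epithelium and podocyte markers gave sums of 1029 to 1075 in MRL mice and 826 to 877 in LPR mice, with 1 of 10 lower, and the brightest, Umod, had a change of -0.21 (adjusted p = 0.213). Adrenal and fat markers gave sums of 2.32 to 2.87 and 0.80 to 1.81, with 0 of 4 called by limma, 1 at an unadjusted p under 0.05 and 0 in the methods' t-test, and the brightest, Adipoq, had a change of -1.76 (adjusted p = 0.191). The part of each of these cell types in the changes of the ligands and receptors was not tested.

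**Figure D4:**
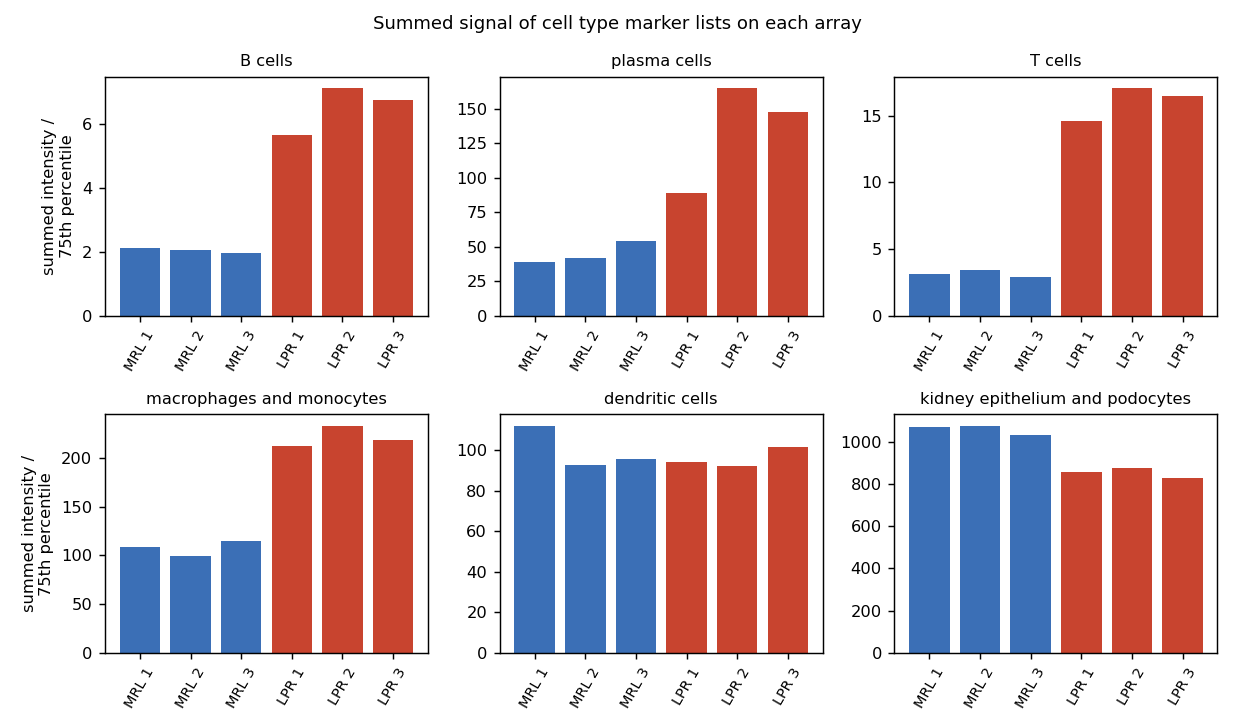
Each bar is 1 array, and the y axis is the summed intensity of the tested markers of a cell type divided by the 75th percentile of the array. Blue bars are MRL mice and red bars LPR mice. Sums of B cell, plasma cell, T cell and macrophage markers are higher in every LPR mouse, and those of kidney epithelium are lower. Those of dendritic cells, mostly the signal of Siglech, overlap, although 5 of the 7 tested dendritic cell markers were called higher.

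Genes whose brightest probe ran most like that of a member over the 6 arrays were named by the root mean square difference after centring each probe on its own mean, as a description. For Tnfsf13b, among 23315 genes with signal on all 6 arrays, these were Was (0.08), LOC108167355 (0.11) and Tnfaip8l2 (0.11). For Tnfrsf13b they were Cd79b (0.13), Zc3h12d (0.16) and Zbp1 (0.17). For the other 2 receptors the candidates were the 273 genes with signal in the 3 LPR mice only. They were H2-DMb2 (0.23), Cxcr5 (0.23) and Fcrla (0.26) for Tnfrsf13c, and ENSMUST00000200578 (0.37), Zbtb42 (0.40) and AK082615 (0.41) for Tnfrsf17, all with MRL values below the detection limit.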

How the data were processed

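For each spot the authors deposited the background-subtracted intensity, the mean and local background intensity and quality flags from Agilent Feature Extraction 12.0.3.1, without normalization between arrays. They also deposited the intensity divided by a constant per array, used as an alternative. Here control spots and outlier spots were left out, log2 intensity minus the 75th percentile of the array was taken, and spots of a probe were averaged. Probes well above background on at least 3 of 6 arrays were fitted with limma 3.58.1 (R 4.3.3) with Benjamini-Hochberg adjustment. Of the 39924 probes tested, 8 lack a value on some array because of an outlier spot, none of them a member. The brightest tested probe, by the mean over all 6 arrays, stands for a gene. Where no MRL array was well above background, the fold is a bound, with MRL values raised to the lowest signal well above background. The adjusted p given with such a bound is that of the fitted change. The number of arrays (1 per mouse) limits the precision.

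The members, gene lists and tests were chosen with earlier results of these data known. Besides the members and Fas, the genes named are the 3 largest changes among the calls of each pathway list, genes of the Tnfsf13 locus, Map3k14, Traf3, Nfkb2, Relb, Bcl2, Mcl1 and the brightest marker of each list. Otud7b, Nfkb1, Ms4a1, Pax5, Cd22, Ebf1, Blk, Fcrla, Bank1, Cxcl13, Ccl19, S100a8, S100a9 and Mpo fall outside this rule and were named after their values were seen. Gene names are those of the array. List genes absent under any name (Camlg, Bcl2a1a, Bcl2a1b and Fdcsp) were not counted. On simulated data with 39916 probes limma recovered 168 of 200 changed probes, 98 of 100 with the larger change, with 9 false calls and 0 of the wrong sign. The simulated noise was independent and normal around the real probe means, with no detection limit. It therefore does not show how well calls hold for probes below background in MRL mice. Alternatives covered background correction, normalization, filters, blocks for slide position and replicate number, the methods' t-test (2-tailed Student, on the same log2 values), averaging of probes and leaving out each mouse.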

Additional observations from a re-analysis of the deposited data

How the results depend on the processing

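In every alternative run 4 genes were called, except with the filter for signals on all 6 arrays, which leaves out Tnfrsf13c and Tnfrsf17 (2 genes and 3 probes called). Without 1 mouse, 4 genes and 5 to 6 probes were called. For A_55_P2738252 of Tnfsf13b the call was lost with normexp (0.39), without a filter on dim probes (1.30), with the slide row (1.21) or column (1.26) in the fit and in the adjusted methods' t-test (1.30), and the change ran from 1.04 to 1.51 without 1 mouse. For A_51_P106269 of Tnfrsf13b it was lost with normexp (0.43), the slide row (1.49) and the adjusted methods' t-test (1.98). The BAFF-R probe A_55_P2117623, not called, changed sign with normexp (-0.13), with a floor at the detection limit (-0.084), with the slide row (-0.26) and without some mice (-0.15 to 0.17). The change of BCMA minus that of BAFF turned to -0.11 with normexp. The causes were not tested. Fits with the slide row or column compare fewer mice, so a call lost there does not show an effect of slide position.

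Genes called per list changed as follows. Of the noncanonical list, 4 in all, 2 were called without a filter, 0 with the slide row and 0 with the slide column, and 2 to 3 without 1 mouse. Of the canonical list, 2 were called with the slide column and 2 in the adjusted methods' t-test. Of the B cell survival list, 3 in all, 2 were called whichever mouse was left out, and also with normexp, quantile normalization, a median shift, no filter on dim probes, an intensity trend, the slide column or a replicate block. In that list 1 was called with the slide row, 1 in the adjusted methods' t-test and 5 in the unadjusted one, and of the syndecans 1 with the slide row. Of the Tnfsf13 neighbours, 1 was called with normexp, 1 with an intensity trend and 2 in the unadjusted methods' t-test. Of the other ligands, 3 were called with the all-array filter, 3 with the slide row and 3 in the adjusted methods' t-test. Of the other receptors, 8 were called with normexp and 3 with the all-array filter. Over all probes, 2606 higher and 2462 lower calls became 2532 and 4498 with normexp, and no scaling moved the median change by more than 0.03.

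The labels number the mice 1 to 3 in both groups. Deviations of same-numbered mice correlated at 0.12, 0.02 and 0.01, against -0.07 to 0.05 for mice of unlike number. These values do not settle whether the numbers pair the mice, and the main fit was unpaired. With a replicate block the noncanonical list had 2 calls, the member genes 4 and the member probes 6, and A_51_P257934 had an adjusted p of 0.00451.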
